A study of Mus musculus with 6 samples.

Results

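The mature B-cell receptor and the antibody it becomes are built from gene segments: in each developing B cell 1 variable (V) segment of the heavy chain locus is joined to a D and a J segment, and 1 V segment of the kappa or lambda light chain locus is joined to a J segment. The V segment encodes most of the antigen-binding domain, and all descendants of that cell, including the plasma cells that secrete antibody, carry the same joined segments. The reads on each V segment in a bulk library therefore depend on which B-lineage transcripts are present and how abundant they are. Whether single reads came from joined segments was not tested.

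The V segments were defined as the genes whose symbols begin with Ighv (heavy chain), Igkv (kappa) or Iglv (lambda) and that are annotated as IG_V_gene, with pseudogenes left out. These are 216 of the 51497 genes that have a transcript in the files: 113 Ighv segments in 16 families, 100 Igkv segments in 20 families and 3 Iglv segments in 3 families. The families are groups of related segments, named by the first number of the symbol. Of the 216, 213 had at least some reads and Ighv16-1, Igkv1-131 and Igkv1-35 were listed at 0.

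The cells were CD11b+Gr1+ splenocytes, a myeloid fraction sorted by flow cytometry from mice that bore Mll-AF9 leukemia. Mll-AF9 is a fusion oncogene, here a knockin allele that every mouse carried. The ribosomal protein gene Rpl22 was intact in the Rpl22+/+ group and disrupted in the germline of the Rpl22-/- group. The 6 libraries were poly(A) RNA-seq libraries, 3 Rpl22+/+ and 3 Rpl22-/-, and the study's methods describe its Rpl22+/+ and Rpl22-/- mice as young adults on the C57BL/6 background, with no age given for the single libraries. No label states how many mice stand behind the 3 libraries of a genotype, and the study names 1 mouse a genotype where it describes the sequenced explants. Genotype and individual mouse can then not be told apart, and every p-value given here measures the spread between libraries, which may be technical.

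Between 35828500 (Rpl22-/- replicate 1) and 102866127 (Rpl22-/- replicate 3) reads were estimated for a library, and the V segments took 0.146% to 0.242% of the reads matched to genes, or 51160 to 210467 reads a library. Rpl22 itself stood at 148, 235 and 152 CPM (a read count divided by a composition-scaled library size, set to a common total) in Rpl22+/+ and at 58.3, 89.9 and 73.5 CPM in Rpl22-/-. The myeloid label was checked by its markers: Itgam, which encodes CD11b, stood at 1838 to 2085 CPM in Rpl22+/+ and 815 to 1036 in Rpl22-/-, and Ly6g, a neutrophil surface protein of the Gr1 epitope, at 149 to 178 and 11.1 to 15.7 CPM. Over the 8 markers of granulocytes and monocytes, 2 were called higher and 3 lower in Rpl22-/-, where 8.93% of all 16656 genes tested were called higher and 8.54% lower. Itgam and Ly6g were among the 3 called lower. The 8 markers summed to 14014 to 20571 CPM in Rpl22+/+ and 27115 to 34188 in Rpl22-/-. B-cell transcripts were present as well in this sort, with Ms4a1, which encodes the B-cell surface protein CD20, at 94.0 to 124 CPM in Rpl22+/+ and 53.4 to 93.1 in Rpl22-/-.

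The V segments that led a locus in any library, and those second to them in every Rpl22+/+ library of the heavy chain and kappa loci, are shown by sequence. Each line gives the last 300 bases of the germline transcript in GENCODE vM21. Capitals run from the codon of the conserved cysteine near the end of the segment to its 3′ end. The bases after that codon are the germline contribution to the third complementarity-determining region. Among heavy chain segments Ighv1-81 was first and Ighv14-2 second in every Rpl22+/+ library, and Ighv14-3 and Ighv6-3 held the first and second place, in either order, in every Rpl22-/- library. Among kappa segments Igkv9-120 was first and Igkv6-32 second in Rpl22+/+, and Igkv3-5 was first in Rpl22-/-. Iglv1 was the leading lambda segment in both.
Ighv1-81: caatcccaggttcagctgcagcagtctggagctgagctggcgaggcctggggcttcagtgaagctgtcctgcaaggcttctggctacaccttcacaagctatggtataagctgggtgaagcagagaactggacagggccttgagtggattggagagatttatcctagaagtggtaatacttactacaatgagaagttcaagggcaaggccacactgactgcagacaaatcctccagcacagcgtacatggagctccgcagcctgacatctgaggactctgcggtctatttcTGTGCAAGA
Ighv14-2: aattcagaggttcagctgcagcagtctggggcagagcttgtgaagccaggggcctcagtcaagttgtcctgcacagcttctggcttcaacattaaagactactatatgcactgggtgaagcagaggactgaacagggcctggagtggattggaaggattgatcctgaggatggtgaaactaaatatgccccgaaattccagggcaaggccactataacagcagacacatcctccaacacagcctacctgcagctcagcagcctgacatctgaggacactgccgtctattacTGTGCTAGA
Ighv14-3: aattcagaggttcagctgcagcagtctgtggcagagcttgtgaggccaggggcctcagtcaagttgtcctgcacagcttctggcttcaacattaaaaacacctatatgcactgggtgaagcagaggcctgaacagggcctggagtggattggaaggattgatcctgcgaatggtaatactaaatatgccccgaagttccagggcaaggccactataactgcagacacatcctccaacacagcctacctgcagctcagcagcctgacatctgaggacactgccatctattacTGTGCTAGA
Ighv6-3: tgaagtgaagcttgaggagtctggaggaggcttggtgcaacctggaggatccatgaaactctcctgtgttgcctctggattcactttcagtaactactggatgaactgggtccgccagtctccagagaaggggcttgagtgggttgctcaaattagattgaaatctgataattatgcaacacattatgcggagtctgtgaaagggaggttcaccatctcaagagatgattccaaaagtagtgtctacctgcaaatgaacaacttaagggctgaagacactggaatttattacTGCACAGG
Igkv9-120: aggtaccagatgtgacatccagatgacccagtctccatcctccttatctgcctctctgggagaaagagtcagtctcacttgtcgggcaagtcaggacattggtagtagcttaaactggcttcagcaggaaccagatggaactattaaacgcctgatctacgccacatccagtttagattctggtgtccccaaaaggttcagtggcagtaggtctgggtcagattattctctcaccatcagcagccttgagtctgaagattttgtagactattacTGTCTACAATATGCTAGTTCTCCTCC
Igkv6-32: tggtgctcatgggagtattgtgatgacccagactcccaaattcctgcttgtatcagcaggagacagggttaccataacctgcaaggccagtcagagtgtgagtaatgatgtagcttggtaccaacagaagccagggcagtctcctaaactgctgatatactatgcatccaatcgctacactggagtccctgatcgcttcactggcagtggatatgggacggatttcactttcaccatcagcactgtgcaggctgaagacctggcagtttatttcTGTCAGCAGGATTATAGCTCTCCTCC
Igkv3-5: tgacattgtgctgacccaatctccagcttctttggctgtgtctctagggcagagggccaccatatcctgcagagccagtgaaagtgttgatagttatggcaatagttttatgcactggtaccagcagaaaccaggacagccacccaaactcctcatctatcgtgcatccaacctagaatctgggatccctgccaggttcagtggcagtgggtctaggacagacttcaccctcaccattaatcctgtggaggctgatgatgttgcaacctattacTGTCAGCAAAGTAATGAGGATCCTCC
Iglv1: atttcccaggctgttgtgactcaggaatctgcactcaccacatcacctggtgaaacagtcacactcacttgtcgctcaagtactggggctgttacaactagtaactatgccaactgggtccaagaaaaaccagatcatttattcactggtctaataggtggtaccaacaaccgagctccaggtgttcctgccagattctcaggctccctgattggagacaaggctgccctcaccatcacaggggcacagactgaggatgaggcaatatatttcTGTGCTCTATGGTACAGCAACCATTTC

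In the authors' GRCm39 coordinates Ighv1-81 lies on the minus strand at chr12:115883899-115884332, Ighv14-2 at chr12:113958089-113958518, Ighv14-3 at chr12:114023465-114023941 and Ighv6-3 at chr12:114355332-114355789, all on the minus strand. Igkv9-120 lies at chr6:68026967-68027440 on the plus strand, Igkv6-32 at chr6:70051008-70051587 on the minus strand, Igkv3-5 at chr6:70640259-70640879 on the plus strand, and Iglv1 at chr16:18903767-18904250 on the minus strand. Ighv14-2, second in every Rpl22+/+ library, and Ighv14-3, first or second in every Rpl22-/- library, were 95.4% identical over their last 280 bases. Igkv9-120 and Igkv6-32 were 63.9% identical, and their nearest relatives in the locus, Igkv9-124 and Igkv6-17, matched them at 95.7% and 87.5%.

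Related segments can exchange reads in the quantification, so the overlap between transcripts was measured. Windows of 59 bases that occur in another V segment or V pseudogene made up 3.41% of the windows of Ighv1-81, 8.39% of Ighv6-3, 10.9% of Ighv14-3, 29.0% of Ighv14-2, 59 of the 295 windows of Igkv9-120 and 39.8% of Igkv3-5, and 0 of the 308 windows of Igkv6-32. Of the segments shown by sequence, Igkv3-5 had the closest relative, Igkv3-10, at 98.2% identity. Among other named segments the shared part was 50.3% for Ighv2-2, 43.4% for Igkv1-117 and 30.4% for Ighv1-4. Values of single segments with a large shared part are uncertain to that extent. Over all 216 segments, 53 shared no window and 132 shared more than 10% of theirs.

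The first question was whether the loci differed in total. Ighv reads stood at 789, 1243 and 655 CPM in Rpl22+/+ and 439, 708 and 631 in Rpl22-/-. Igkv reads stood at 1097, 1587 and 891 CPM in Rpl22+/+ and 833, 1118 and 1187 in Rpl22-/-. In both loci the groups overlapped, with means of 896 ± 308 against 593 ± 139 CPM (SD, n = 3 each) for Ighv (p = 0.2, two-sided exact permutation test over libraries) and 1192 ± 357 against 1046 ± 187 for Igkv (p = 0.7, same test). The highest value of each belongs to Rpl22+/+ replicate 2, and without it the Igkv log2 ratio of Rpl22-/- to Rpl22+/+ moved from -0.19 to 0.0735. The Ighv log2 ratio was -0.60 and ranged from -0.78 to -0.28 over 10 alternatives. The Ighv groups overlap only through Rpl22-/- replicate 2, at 708 CPM, and Rpl22+/+ replicate 3, at 655. A total in a bulk sample cannot tell fewer B-lineage cells from less RNA per cell.

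The lambda locus did not overlap between genotypes. Iglv reads stood at 10.3, 12.6 and 7.97 CPM in Rpl22+/+ and at 95.5, 139 and 151 CPM in Rpl22-/-, which put every Rpl22-/- library above every Rpl22+/+ library with a mean 12.5-fold higher (p = 0.1 by the exact permutation test, the smallest that 3 against 3 libraries can give). As a share of all light chain V reads, lambda took 0.934%, 0.790% and 0.887% in Rpl22+/+ and 10.3%, 11.04% and 11.3% in Rpl22-/-. The 95% Wilson intervals, which cover counting error only, reached at most 1.00% in Rpl22+/+ and began at 9.97% or above in Rpl22-/-. The mouse uses kappa for most of its light chains, and kappa took the larger share in all 6 libraries. The heavy chain took 41.6%, 43.7% and 42.1% of all V reads in Rpl22+/+ and 32.1%, 36.1% and 32.0% in Rpl22-/-.

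Within the heavy chain locus a single segment dominated the Rpl22+/+ libraries. Ighv1-81 took 58.9%, 58.1% and 60.6% of Ighv reads in Rpl22+/+ and 2.07%, 0.948% and 1.06% in Rpl22-/-. Its level was 465, 722 and 397 CPM against 9.11, 6.72 and 6.70 CPM, a change of -6.14 on the log2 scale (SE 0.32, edgeR quasi-likelihood test over all genes, adjusted p = 8.25e-05). In Rpl22-/- no segment passed 12%: Ighv14-3 led replicates 1 and 2 with 10.8% in each, and Ighv6-3 led replicate 3 with 11.7%.

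**Figure D1:**
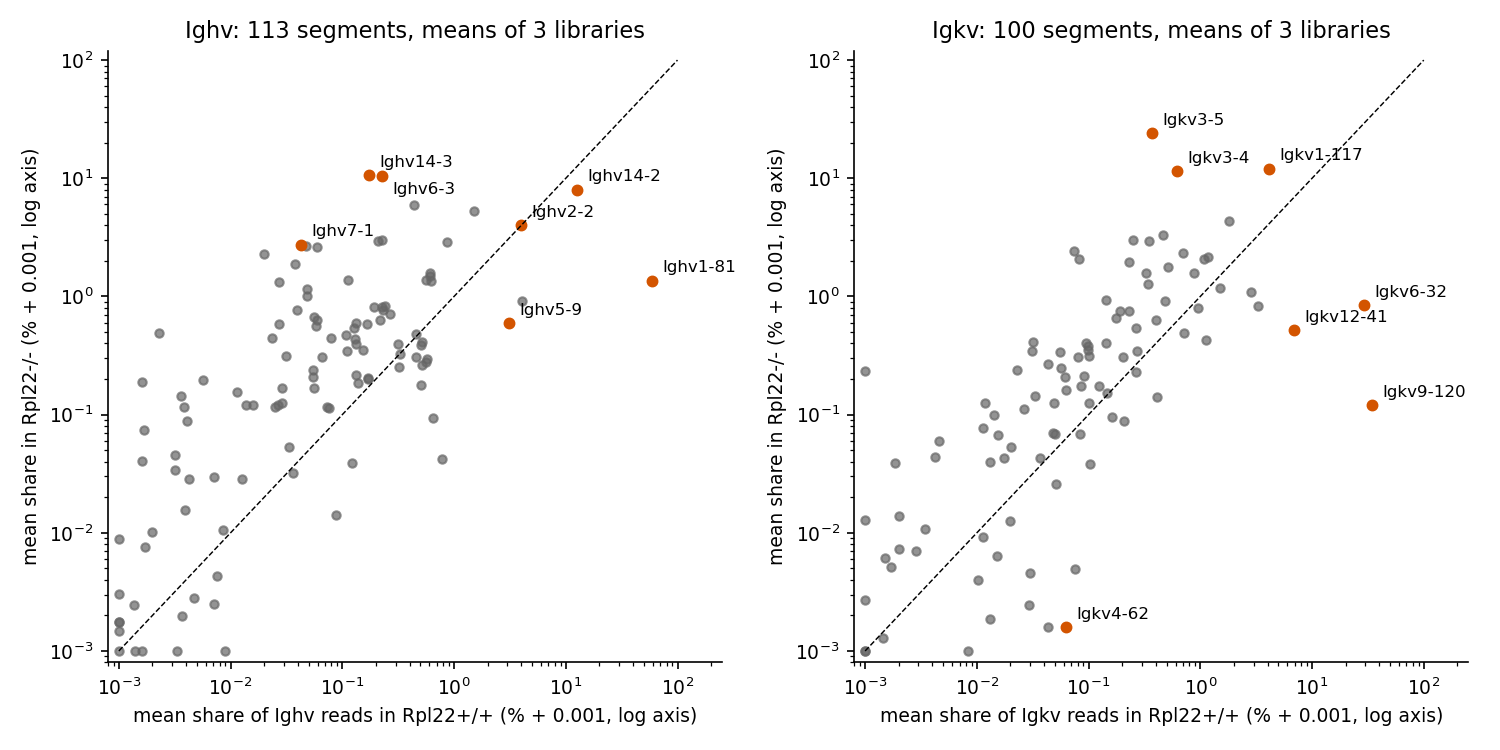
Mean share of the locus reads (percent plus 0.001, log axes) of each Ighv (left) and Igkv (right) segment in the 3 Rpl22+/+ libraries (x) and the 3 Rpl22-/- libraries (y), 1 point a segment, with the dashed line marking equal shares and the named segments in orange. Ighv1-81 lies far to the right at a mean of 59.2% against 1.36%, and Igkv3-5 lies high at 24.1% against 0.366%.

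Ighv14-3 took 0.145%, 0.239% and 0.134% of Ighv reads in Rpl22+/+ and 10.8%, 10.8% and 10.3% in Rpl22-/-. Its mean level rose from 1.66 ± 1.14 to 63.1 ± 14.7 CPM, by 5.24 on the log2 scale (SE 0.53, adjusted p = 0.000857). Ighv6-3 took 0.141%, 0.276% and 0.258% in Rpl22+/+ and 9.47%, 10.4% and 11.7% in Rpl22-/-, and rose by 4.92 on the log2 scale (SE 0.50, adjusted p = 0.000856). For both segments the groups were far apart, with all 3 Rpl22+/+ libraries below 0.3% of the locus.

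Not every abundant heavy chain segment changed its share. Ighv2-2 took 4.46%, 3.98% and 3.58% in Rpl22+/+ and 4.55%, 3.60% and 3.88% in Rpl22-/-, overlapping groups with a mean of 4.01% in each, and it was not called (log2 fold change -0.63, adjusted p = 0.142). With 50.3% of its windows shared with other segments, its values are uncertain. Ighv14-2, the close relative of Ighv14-3, was among the leading 3 segments of every library, with 13.4%, 11.8% and 12.2% in Rpl22+/+ and 7.29%, 8.34% and 8.43% in Rpl22-/-. It was called lower with a log2 fold change of -1.20 (adjusted p = 0.0276), a call that was lost without Rpl22+/+ replicate 1 or 2 (adjusted p = 0.0634, and a log2 fold change of -0.98) and without Rpl22-/- replicate 1 or 3 (adjusted p = 0.0746 and 0.0781).

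The other named heavy chain segments lay on either side. Ighv3-6, one of the leading 5 in Rpl22+/+, fell from 36.1 ± 11.3 to 5.41 ± 1.65 CPM (log2 scale -2.73, adjusted p = 0.0016), and Ighv5-9 fell from 28.4 ± 12.8 to 3.36 ± 0.254 CPM (-3.07, adjusted p = 0.00116). Ighv7-1 rose from 0.320 ± 0.127 to 16.2 ± 4.30 CPM (5.66, adjusted p = 0.00022). Ighv1-4, Ighv1-7 and Ighv1-54, members of the family of Ighv1-81, rose with log2 fold changes of 5.02, 3.39 and 3.98. Ighv5-2, the V segment nearest the J segments among those with a position, had 8 reads in the Rpl22+/+ libraries together and 283 in those of Rpl22-/-.

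A pair of segments dominated the kappa locus in Rpl22+/+. Igkv9-120 took 34.3%, 33.6% and 35.5% of Igkv reads in Rpl22+/+ and 0.154%, 0.110% and 0.0937% in Rpl22-/-. Its level fell from 377, 533 and 317 CPM to 1.28, 1.23 and 1.11 CPM, a change of -8.41 on the log2 scale (SE 0.29, adjusted p = 2.68e-05). Igkv6-32 took 30.5%, 27.2% and 29.3% in Rpl22+/+ and 0.833%, 0.962% and 0.746% in Rpl22-/-, and fell by 5.27 on the log2 scale (SE 0.29, adjusted p = 8.54e-05). Both segments were the first and second of the locus in all 3 Rpl22+/+ libraries, and they ranked 60th and 22nd by mean share in Rpl22-/-.

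Igkv3-5 held the first place in all 3 Rpl22-/- libraries, with 25.3%, 23.6% and 23.3% of Igkv reads against 0.364%, 0.330% and 0.403% in Rpl22+/+. It rose from 3.996, 5.23 and 3.59 CPM to 211, 263 and 277 CPM, by 5.87 on the log2 scale (SE 0.23, adjusted p = 3.53e-05). Its close relative Igkv3-10, not among the leading segments and given because of that identity, took 0.131%, 0.521% and 0.090% in Rpl22+/+ and 3.04%, 3.02% and 2.90% in Rpl22-/-. Igkv3-4, 90.7% identical to Igkv3-5, took 0.633%, 0.733% and 0.469% in Rpl22+/+ and 8.66%, 13.8% and 11.9% in Rpl22-/- (log2 fold change 4.02, adjusted p = 0.00158).

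Igkv1-117 was abundant in both genotypes, with 3.90%, 4.59% and 3.79% in Rpl22+/+ and 12.1%, 10.47% and 13.6% in Rpl22-/-. Its CPM log2 fold change was 1.34 (adjusted p = 0.0231), and the call was lost without Rpl22+/+ replicate 1 or 3 or Rpl22-/- replicate 3 (adjusted p = 0.0789, 0.0715 and 0.0809). Igkv12-41 took 7.58%, 6.87% and 6.39% in Rpl22+/+ and 0.552%, 0.365% and 0.637% in Rpl22-/- and fell by 3.93 on the log2 scale (adjusted p = 0.000553). Igkv2-137 rose from 2.34, 2.26 and 2.91 CPM to 15.8, 25.8 and 20.4 CPM (3.05 on the log2 scale, adjusted p = 0.000338).

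Some rarer kappa segments had few reads in Rpl22-/- at this depth. Igkv4-62 had 161 reads in all 3 Rpl22+/+ libraries together and 2.26 in those of Rpl22-/-, and Igkv1-132 had 107 and 2. Igkv4-92 had 190 and 11 reads, and Igkv9-129 had 73.3 and 5.29. All 4 were called lower, and with so few reads in Rpl22-/- no fold is given.

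**Figure D2:**
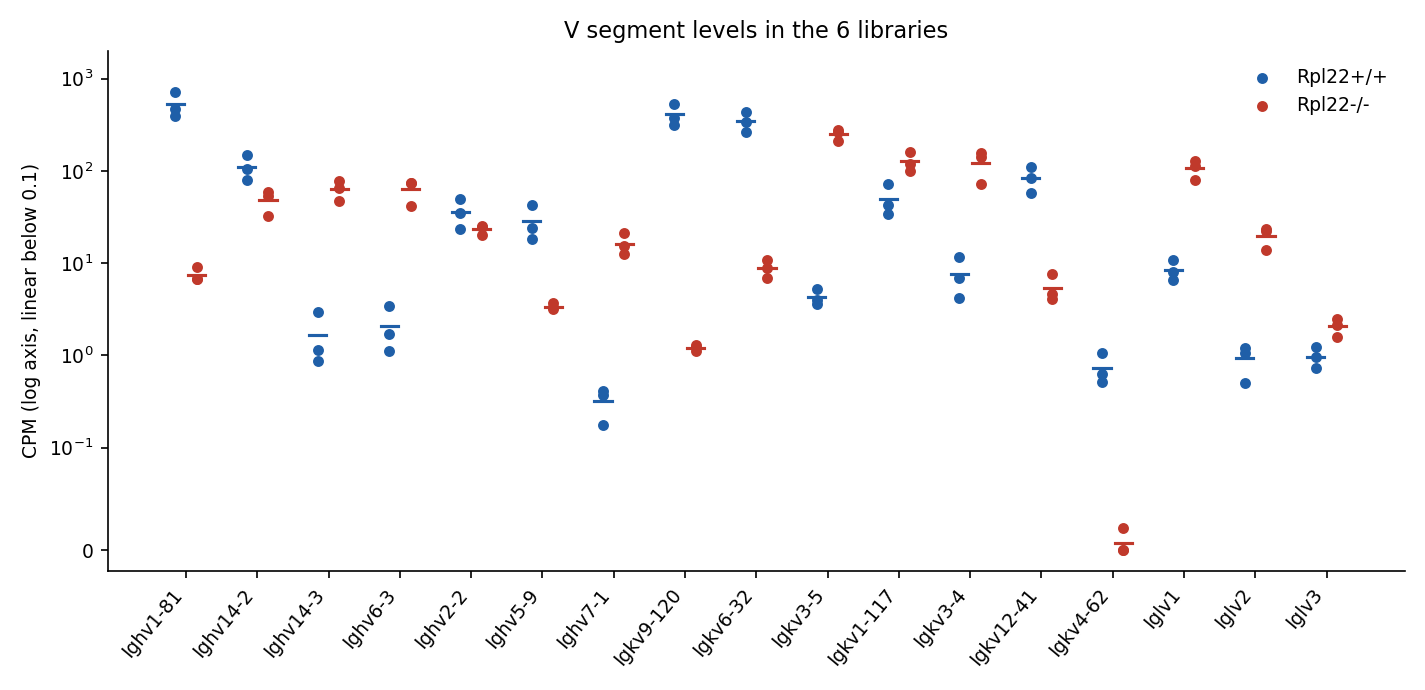
Level in CPM (log axis, linear below 0.1) of 17 V segments in the 3 Rpl22+/+ (blue) and 3 Rpl22-/- (red) libraries, 1 point a library and a line at the mean of each group. The groups of Ighv1-81, Igkv9-120 and Igkv3-5 stand far apart, and those of Ighv2-2 overlap.

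All 3 lambda segments rose. Iglv1 rose from 8.06, 10.7 and 6.52 CPM to 80.2, 113 and 126 CPM, by 3.66 on the log2 scale (SE 0.27, adjusted p = 0.000274), and Iglv2, 97.5% identical to it, rose from a mean of 0.924 ± 0.373 to 19.8 ± 5.29 CPM, by 4.42 on that scale (adjusted p = 0.000565). Iglv3, which is only 51.4% identical to Iglv1, stood at 1.22, 0.728 and 0.949 CPM against 1.58, 2.13 and 2.48 CPM, with a log2 fold change of 1.10 (adjusted p = 0.0381). The Iglv3 call was lost without any one of the 3 Rpl22+/+ libraries or without Rpl22-/- replicate 2 or 3 (adjusted p from 0.0539 to 0.134), and with no filter on low counts (0.0722). Within the locus Iglv1 held 78.0%, 84.6% and 81.8% in Rpl22+/+ and 84.0%, 81.8% and 83.5% in Rpl22-/-, overlapping groups, while Iglv3 held 5.76% to 11.9% and 1.54% to 1.66%.

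Over all V segments, 174 passed the filter on low counts and were tested, and the other 42 had at most 147 reads over the 6 libraries. Of those tested, 70 were called higher in Rpl22-/- (38 Ighv, 29 Igkv and 3 Iglv) beside 8.93% of all 16656 genes tested, and 23 were called lower (12 Ighv and 11 Igkv) beside 8.54% of all genes. The remaining 81 were not called. CPM groups did not overlap for 92 segments in the higher and 28 in the lower direction, where 23.9% and 22.2% of all genes tested did so, 46.1% in either direction. The median log2 fold change was 1.32 over the V segments tested and 0.07 over all genes tested. These counts describe segments that passed partly through the genotype in which they were high. Without Rpl22-/- replicate 1 the lower calls went from 23 to 15.

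Summed by family, the segments gave the following shares. Ighv1, the largest heavy chain family with 53 segments, took 69.3%, 69.9% and 71.8% of Ighv reads in Rpl22+/+ and 32.6%, 33.8% and 33.2% in Rpl22-/-. Among the 47 tested members of the family, 17 were called higher and 6 lower, Ighv1-81 being one of the latter, beside 8.93% and 8.54% of all genes tested. Ighv3 took 4.36% ± 0.145 and 2.02% ± 0.274 (SD, n = 3 each), groups that overlapped once segments sharing over 10% of their windows were left out.

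Ighv6 took 0.317%, 0.441% and 0.420% in Rpl22+/+ and 10.2%, 10.9% and 12.5% in Rpl22-/-, and nearly all of the Rpl22-/- share was Ighv6-3. Ighv14 went from 12.1% to 13.6% in Rpl22+/+ to 18.7% to 19.8% in Rpl22-/-, with Ighv14-2 and Ighv14-3 on opposite sides within it. Ighv2, Ighv9 and Ighv7 took 4.85%, 0.625% and 0.270% on average in Rpl22+/+ and 12.2%, 7.23% and 3.67% in Rpl22-/-. Ighv8 overlapped between the groups, at 0.644% to 0.892% and 0.664% to 0.940%, but not without the segments that share windows, at 0.354% to 0.525% and 0.692% to 1.22%. Ighv11, a family known from antibodies of B-1 cells, took 0.193% to 0.318% and 0.676% to 1.10%, and Ighv12, known from the same cells, took 0.0632% to 0.101% and 0 to 0.0226%. With V pseudogenes counted in, the Ighv12 difference changed sign, from -0.0731 to 0.0112 percentage points.

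In the kappa locus Igkv9 took 34.7%, 34.4% and 36.0% in Rpl22+/+ and 0.405%, 0.251% and 0.329% in Rpl22-/-. Igkv6 took 32.3%, 29.3% and 30.8% against 6.73%, 7.51% and 6.76%. In the other direction Igkv3 took 2.77%, 3.44% and 2.46% against 41.1%, 45.4% and 41.8%, and 6 of its 9 segments were called higher and 0 lower, beside 8.93% and 8.54% of all genes tested. Igkv1 took 7.80%, 7.74% and 7.64% against 19.7%, 15.05% and 19.3%. Igkv4, the largest kappa family with 26 segments, overlapped at 4.72% to 7.05% and 5.36% to 6.90% with all segments. Without those that share over 10% of their windows it did not, at 0.910% to 1.34% and 3.16% to 5.14%.

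Of 34 families with at least 100 reads, the libraries of the genotypes did not overlap in 31, with the higher share in Rpl22-/- in 23 and in Rpl22+/+ in 8. Of all single genes tested, 46.1% had CPM groups that did not overlap. The shares of a locus add to 100%, so families are not independent of each other. Each of the 31 had p = 0.1 in the exact permutation test and 0.11 after Benjamini-Hochberg adjustment over the 34, and since 0.1 is the smallest p this design can give, no family could pass. Segments that share over 10% of their windows were left out in an alternative chosen after the data were seen, which kept 71.1% to 72.8% of Ighv reads in Rpl22+/+ and 30.6% to 31.5% in Rpl22-/-, and 34.9% to 37.6% and 12.2% to 13.8% of Igkv reads.

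Of the 31 families, 20 Ighv and Igkv families still had at least 100 reads there, and 16 of these kept their groups apart in the same direction. Ighv3, Ighv13 and Igkv9, which loses Igkv9-120, overlapped. Igkv12 turned its direction: it took 10.9%, 10.2% and 9.80% in Rpl22+/+ and 4.79%, 4.96% and 5.46% in Rpl22-/- with all segments, and 7.73%, 8.21% and 7.98% against 8.98%, 8.78% and 10.49% without those that share windows.

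**Figure D3:**
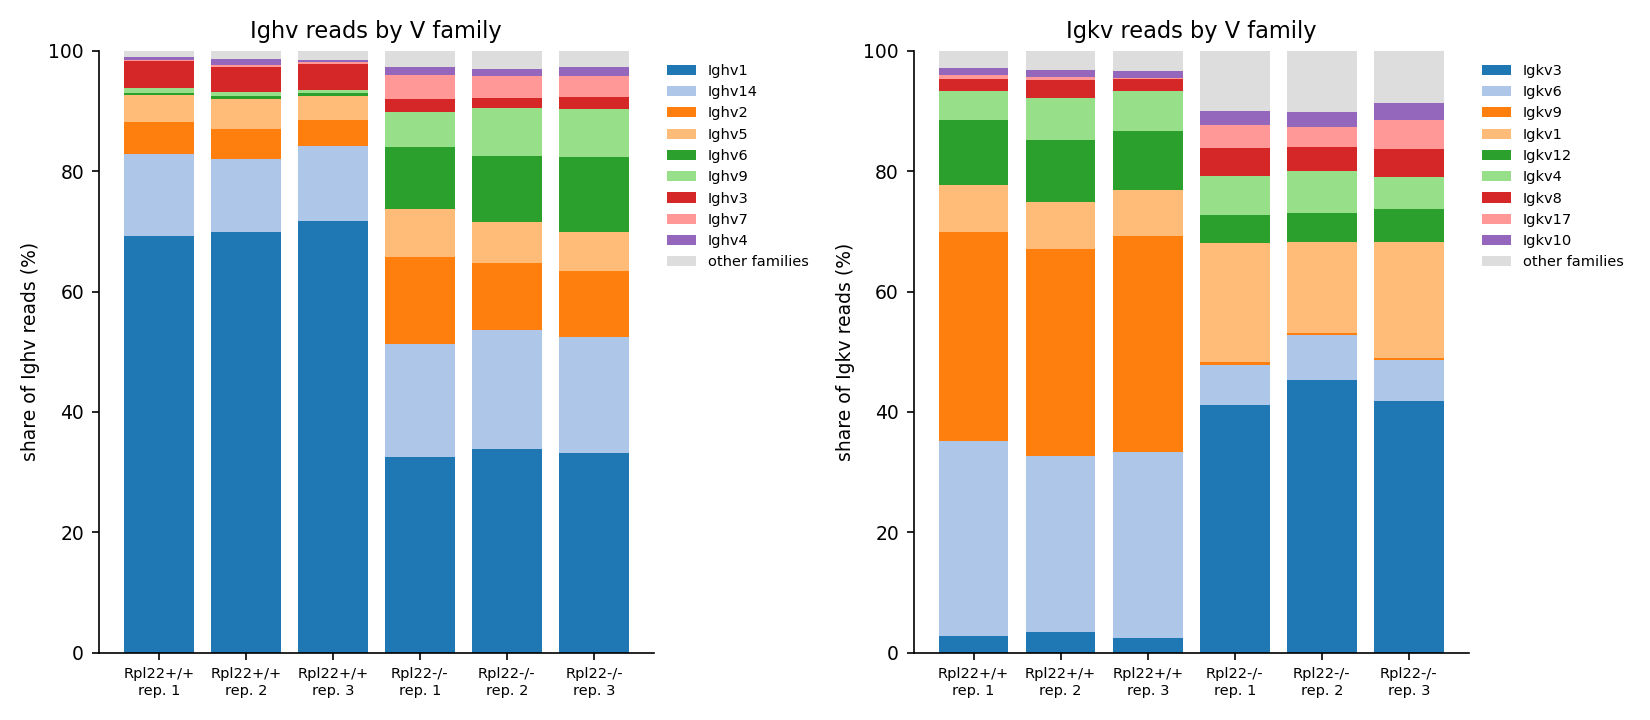
Stacked shares (percent of the locus reads, y axis) of the 9 largest V families and all others in each of the 6 libraries (x axis) for Ighv (left) and Igkv (right). Ighv1 and Igkv9 shrink from Rpl22+/+ to Rpl22-/- while Ighv6 and Igkv3 widen, and the 3 bars of each genotype look alike.

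How evenly the reads spread over the segments was measured by the effective number of segments, the inverse Simpson index, which equals the number of equally used segments that would give the same concentration. For Ighv it was 2.70, 2.80 and 2.59 in Rpl22+/+ and 23.7, 21.5 and 20.6 in Rpl22-/-. For Igkv it was 4.52, 5.06 and 4.52 in Rpl22+/+ and 10.3, 10.52 and 10.3 in Rpl22-/-. Neither locus overlapped between genotypes (p = 0.1 each, the smallest the exact permutation test can give). Without segments sharing over 10% of their windows the size of the difference changed, to 1.45, 1.51 and 1.44 against 7.39, 6.44 and 5.91 for Ighv and to at most 1.62 against 12.6, 11.8 and 12.8 for Igkv. A single Ighv segment held over 50% of the locus reads in each Rpl22+/+ library, where 9, 8 and 8 segments were needed in Rpl22-/-, and for Igkv the numbers were 2 in each Rpl22+/+ library and 4 in each Rpl22-/- library.

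Most segments of each locus were seen in both genotypes. Ighv segments with at least 3 reads numbered 86, 88 and 80 in Rpl22+/+ and 92, 96 and 97 in Rpl22-/-, and Igkv segments numbered 86, 86 and 82 against 80, 89 and 89. After thinning each library to the reads of the smallest one, the Ighv means were 87.5 ± 2.60 and 96.99 ± 2.07 segments with a read, and the Igkv means were 86.0 ± 2.37 and 89.0 ± 1.94. Removing the segment that leads in each library left the Rpl22-/- effective numbers above those of Rpl22+/+, by 15.7 for Ighv and 10.6 for Igkv.

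Libraries of 1 genotype shared nearly the same segment usage. The lower of the 2 shares, summed over segments, gives the percentage of reads that a pair of libraries places on the same segments. For Ighv it was 95.3% to 95.8% for the 3 pairs within Rpl22+/+, 87.8% to 91.8% within Rpl22-/-, and 27.4% to 30.4% for the 9 pairs between genotypes. For Igkv it was 93.4% to 95.2%, 89.4% to 91.3% and 22.9% to 26.7%. Of the 10 leading Igkv segments, 8 or 9 were shared by any pair within a genotype and 2 or 3 by any pair between them.

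The shares of single segments were also compared by their counting error alone. Among segments with a mean of at least 100 reads in a pair, the 95% Wilson intervals of the shares overlapped for 38.03% to 58.8% of Ighv segments and 30.95% to 54.2% of Igkv segments within a genotype, and for 6.82% to 13.04% and 3.57% to 17.7% between genotypes.

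**Figure D4:**
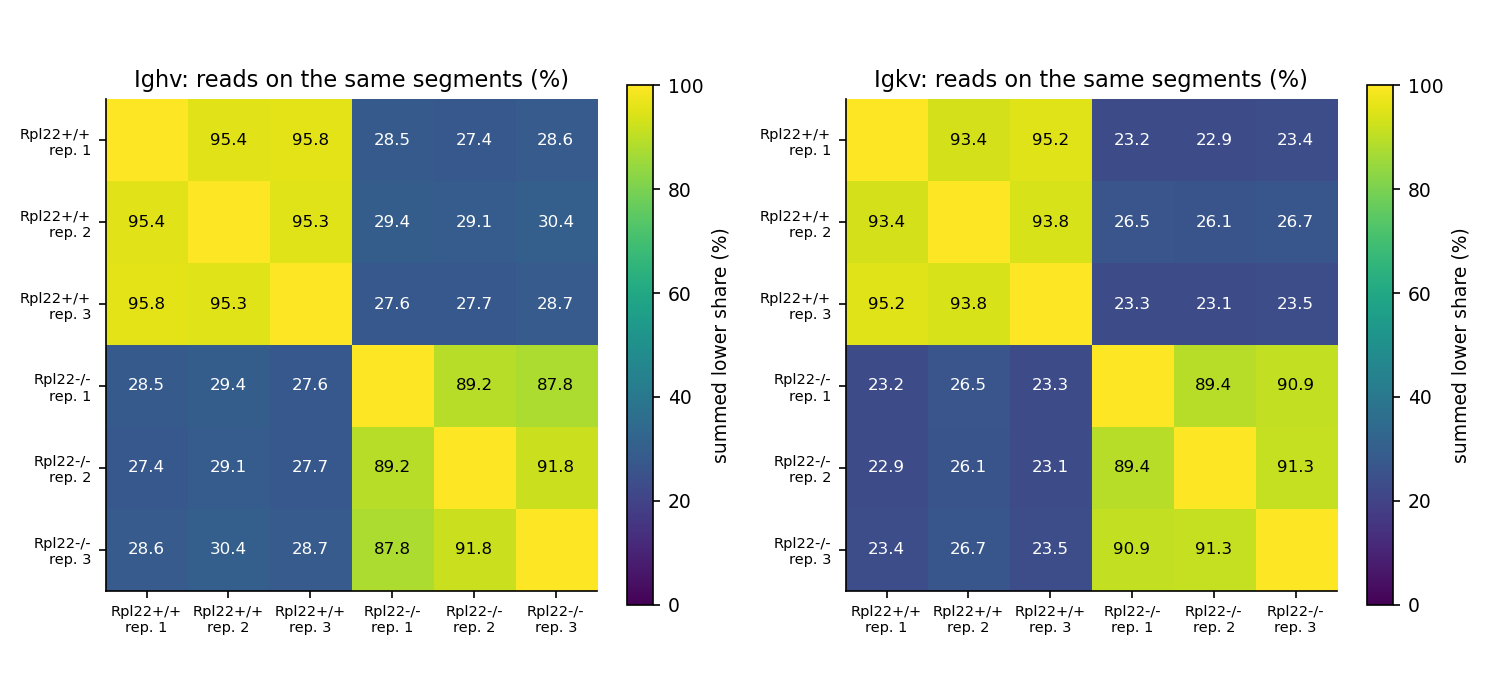
Percentage of reads on the same segments (colour and printed value) for each pair of the 6 libraries, for Ighv (left) and Igkv (right), with the diagonal left blank. Pairs within a genotype reach 87.8% or more and pairs between genotypes stay at 30.4% or below.

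Pearson's r of the Ighv shares over 113 segments was above 0.999 within Rpl22+/+, 0.976 to 0.991 within Rpl22-/- and 0.0967 to 0.164 between genotypes. For Igkv, over 100 segments, it was 0.998 to 0.999, 0.975 to 0.989 and 0.0153 to 0.0329. On log10 shares, with 0.01 percent added to each, r between genotypes was 0.612 to 0.658 for Ighv and 0.664 to 0.716 for Igkv, and 0.949 to 0.977 within a genotype over both loci. These are descriptions across segments whose values share a library and its depth. Without the segments that lead in any library, a choice made after the data were seen, pairs between genotypes placed 44.5% to 48.6% of the remaining Ighv reads and 32.8% to 38.5% of the remaining Igkv reads on the same segments, and the pairs within a genotype 86.6% to 92.4% and 87.1% to 94.1%. Without segments sharing over 10% of their windows, pairs between genotypes placed 13.4% to 18.4% of Ighv reads and 24.1% to 27.7% of Igkv reads on the same segments.

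Position in the locus was compared for the 101 Ighv and 94 Igkv segments with a GRCm39 position on chromosomes 12 and 6. The 34 Ighv segments farthest from the J segments, which include Ighv1-81, took 65.3%, 65.9% and 67.9% of the reads in Rpl22+/+ and 21.5%, 21.9% and 21.2% in Rpl22-/-. The 33 nearest took 24.95%, 24.2% and 22.3% against 53.2%, 51.5% and 49.99%. Both directions rest on Ighv1-81. Without that segment, a choice made after the data were seen, the farthest took 15.5%, 18.6% and 18.7% in Rpl22+/+ and 19.8%, 21.1% and 20.4% in Rpl22-/-, and the nearest took 60.7%, 57.8% and 56.6% against 54.3%, 51.96% and 50.5%, so that both turned. The 31 Igkv segments nearest the J segments took 37.3%, 35.9% and 35.4% in Rpl22+/+ and 52.9%, 57.2% and 53.5% in Rpl22-/-, and the 32 farthest took 47.0%, 46.8% and 48.1% against 32.7%, 28.0% and 33.4%. Without Igkv9-120 and Igkv3-5 both of these turned as well, to 56.6%, 53.9% and 54.7% against 37.0%, 44.1% and 39.4% for the nearest and 19.5%, 19.9% and 19.5% against 43.7%, 36.6% and 43.5% for the farthest. In the kappa locus V segments lie in both orientations, and those on the plus strand, the strand of the J segments, join by deletion and the others by inversion. The 37 plus-strand segments, Igkv9-120 and Igkv3-5 among them, took 47.8%, 47.8% and 48.5% in Rpl22+/+ and 71.7%, 71.2% and 72.4% in Rpl22-/-. Without Igkv9-120 and Igkv3-5 the plus-strand segments took 20.1%, 21.0% and 19.6% against 62.1%, 62.3% and 63.98% of the reads.

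**Figure D5:**
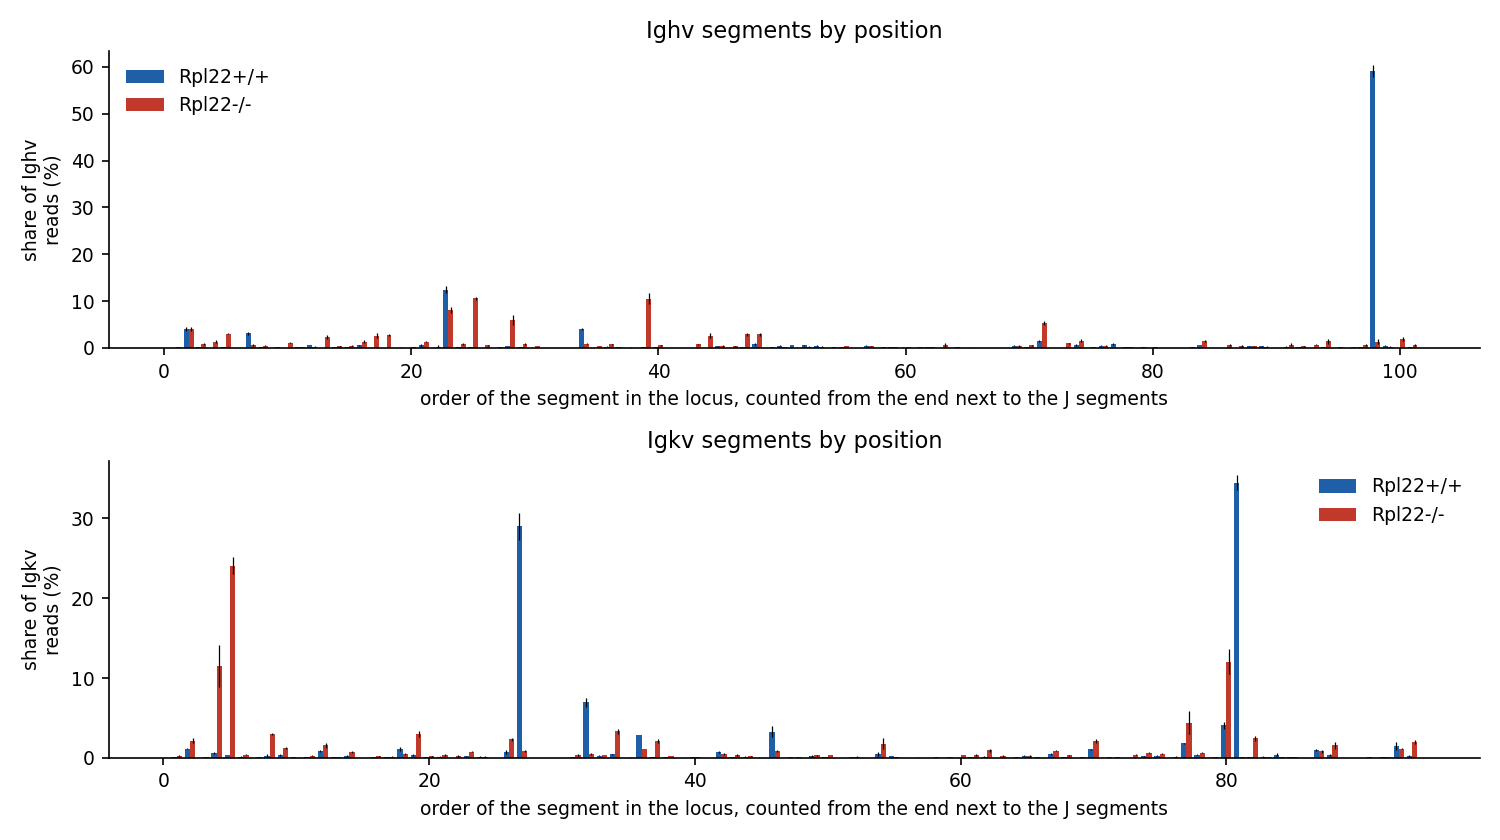
Mean share of the locus reads (percent, y axis; error bars are the SD of 3 libraries) of each Ighv (top) and Igkv (bottom) segment in order along its locus from the end next to the J segments (x axis), with Rpl22+/+ in blue and Rpl22-/- in red. The Rpl22+/+ reads stand in a few tall bars, 59.2% at Ighv1-81 and 34.5% at Igkv9-120, and the Rpl22-/- reads in many low Ighv bars.

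Constant regions are joined to the V segments by splicing and name the antibody class. Of 12 constant region genes, 1 was called higher and 2 lower, beside 8.93% and 8.54% of all genes tested. Iglc1, a constant region used with Iglv1, rose from 20.3, 24.5 and 16.9 CPM to 110, 147 and 164 CPM (2.77 on the log2 scale, SE 0.22, adjusted p = 0.000372). The other lambda constant regions tested, Iglc2 and Iglc3, were not called (log2 fold changes 0.08 and -0.01), with Iglc2 at 46.4, 53.95 and 37.6 CPM against 35.4, 61.1 and 48.9 CPM. Ighg2b, the IgG2b constant region, fell from 2291, 3611 and 2016 CPM to 334, 535 and 557 CPM (-2.47, SE 0.31, adjusted p = 0.00203), and Ighd, the IgD constant region, fell from 24.2 ± 3.57 to 6.20 ± 0.697 CPM. Ighm, the IgM constant region, stood at 1136, 1574 and 985 against 1515, 2768 and 2464 CPM and was not called (0.87, adjusted p = 0.0652). Igkc was not called either (-0.38, adjusted p = 0.342).

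The receptor's partners and the recombination machinery were 10 genes, of which 8 were tested, 0 called higher and 3 lower, beside 8.93% and 8.54% of all genes tested. Rag1 and Rag2, the recombinase that cuts next to V segments, stood at 0.442 ± 0.0576 and 0.179 ± 0.0428 CPM in Rpl22+/+ and 0.0131 ± 0.0153 and 0.00891 ± 0.0154 in Rpl22-/-. These Rpl22-/- values rest on very few reads, with Rag1 at 0 in replicate 1 and Rag2 at 0 in replicates 2 and 3. Dntt, the polymerase that adds bases at the joints, stood at 6.03 ± 1.04 and 0.0726 ± 0.0317 CPM. Cd79a and Cd79b, the signalling chains of the receptor, were not called (log2 fold changes -0.53 and -0.35).

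Markers of B and plasma cells, which make V transcripts, were compared as well. The 10 B-cell markers summed to 839 to 1064 CPM in Rpl22+/+ and 532 to 780 in Rpl22-/-, and 1 of them, Cr2, was called higher and 0 lower, again beside 8.93% and 8.54% of all genes tested. The 8 plasma cell markers summed to 314 to 474 and 459 to 533 CPM, with 0 called higher and 1 lower, Derl3. Of the 8, Xbp1, a transcription factor of secretory cells, and Jchain, which links IgM and IgA into polymers, had higher means in Rpl22-/- (log2 fold changes 0.70 and 0.80, neither called), and the other 6 had lower means. Of other cells, 6 of 8 T-cell markers were called lower (summed 55.8 to 70.6 against 24.8 to 29.4 CPM) and 4 of 4 erythroid markers higher. None of these lists had a member listed at 0 in all libraries, and the part of the cell makeup of the sort in the V segment results was not tested.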

How the data were processed

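The V segments and lists were chosen with earlier results of these data known. Poly(A) RNA-seq of 6 libraries was used, grouped by their titles. Per the study's methods, the authors used Trimmomatic for trimming and Salmon for quantifying transcripts; tool versions and the transcript set are not given in the sources used here. The authors deposited estimated counts (reads that need not be whole) and TPM per transcript. A further table deposited by the authors holds their own DESeq2 comparison and was used only for gene positions on GRCm39.

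Estimated counts were summed to genes with GENCODE vM21, matched on transcript identifiers without versions (136036 of 276623 transcripts, with 98.0% to 98.1% of the reads of each library), and rounded. Sequences came from GENCODE vM21, a GRCm38 annotation from which no coordinate was taken. The RefSeq promoter table matched 0 of the 216 segments. Genotypes were compared over all 16656 genes that passed filterByExpr by edgeR 4.0.16 (quasi-likelihood test, TMM scaling; R 4.3.3). A call required a change over 1 in size on the log2 scale and p below 0.05 after Benjamini-Hochberg adjustment. Shares, sums and effective numbers were compared with two-sided exact permutation tests over libraries (scipy 1.17.1). Segments share reads with relatives, and reads are not independent molecules, so intervals cover counting error only.

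Named segments were the 5 with the highest mean share in Ighv and Igkv, the leader of each library and locus, all Iglv segments and up to 10 called segments a direction by p-value, 26 in all. Deviations from the group means were correlated over 13202 genes, with r = 0.57, 0.71 and 0.13 for same-numbered libraries in order of replicate number. Pairs of unlike numbers gave -0.66 to 0.43. For replicate 3 no pairing by number was seen, as 0.13 lay below the 0.43 of Rpl22+/+ replicate 3 with Rpl22-/- replicate 1. Deviations within a group cancel, so these r values are not independent of each other. The replicate number was also fitted as a block, although the labels name no shared animal or day. The edgeR fit was tested on simulated data, and the effective number, thinning and permutation calculations on small known inputs. Figures were drawn with matplotlib 3.10.9. A marker gene that the lists hold is not reported here.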

Additional observations from a re-analysis of the deposited data

Results flagged for a closer look

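Reads on V pseudogenes lie outside the comparisons above. They made up 0.693%, 0.541% and 0.777% of all V reads in Rpl22+/+ and 1.33%, 1.47% and 1.27% in Rpl22-/-, and were there in every library. The 130 V pseudogenes include Ighv1-79, with 317, 504 and 340 reads in Rpl22+/+ and 1 in each Rpl22-/- library, and Ighv1-14, with 1, 6.02 and 0 reads in Rpl22+/+ and 102, 691 and 498 in Rpl22-/-. Ighv1-62 had 0, 1.28 and 4.31 reads in Rpl22+/+ and 96.2, 448 and 494 in Rpl22-/-. These pseudogenes were the ones with the most reads and were chosen after their values were seen. Whether the reads belong to related segments of the same family was not tested.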

How the results depend on the processing

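The 70 higher and 23 lower calls among V segments ranged from 48 to 96 and from 15 to 24 over 13 alternatives (DESeq2 1.42.0 size factors or test, no composition factor, no filter, limma 3.58.1 on log2(TPM + 1) or log2(TPM + 0.1), the replicate block and each library left out). Leaving out 1 library gave 48 to 96 higher and 15 to 22 lower calls, with 96 without Rpl22+/+ replicate 2 and 15 without Rpl22-/- replicate 1. With the replicate block, which pairs libraries by number, 86 were higher and 23 lower, and no named segment changed its call. Without a composition factor the median of all genes moved from 0.07 to 0.19 and 85 were higher. The Igkv log2 ratio ranged from -0.36 to 0.0735 when 1 library was left out and was 0.0735 without Rpl22+/+ replicate 2. Differences that were small and overlapping changed sign: the number of Igkv segments (main 1.33, from -0.167 to 4.33 with 1 library left out), the Ighv8 share (main 0.00396 percentage points, -0.350 with V pseudogenes included, -0.0770 to 0.0769 with 1 library left out), and the Igkv4 share (main 0.139, -0.555 to 0.612 with 1 library left out). The Ighv12 share changed from -0.0731 to 0.0112 with V pseudogenes included. Without segments sharing over 10% of their windows, 19 families did not overlap, against 31 with all segments: 16 in the same direction, Igkv12 in the other, and Ighv8 and Igkv4, which overlapped before. The Ighv position differences (main 27.7 percentage points for the nearest and -44.8 for the farthest segments) were -6.12 and 2.85 without Ighv1-81 and -5.74 and 8.27 without the segments that lead in any library, an omission that moved the Igkv differences from 18.3 to -14.9 for the nearest and from -15.9 to 21.6 for the farthest. Leaving out the segments that share windows gave an effective number higher by 5.12 for Ighv and 10.9 for Igkv in Rpl22-/-, against 19.3 and 5.69 with all segments. Leaving out 1 library, the exact test of 3 against 2 cannot go below 0.2. The lambda share difference stayed between 9.67 and 10.3 percentage points in all 8 alternatives. Depth limits the rare segments: 42 were not tested.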
